A study of Mus musculus with 5 samples.

Results

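The genes of the primary cilium were read from RNA sequencing of the cerebral cortex of E14.5 mouse embryos. All 36 listed members were found by symbol among the 34590 gene symbols of the deposited tables, and all 36 passed the low-count filter, which kept 16229 genes. The members are 10 subunits of intraflagellar transport complex B, 2 of complex A, 6 of the BBSome, 2 chaperonin-like BBS genes, 9 transition zone genes, 1 gene of the centriole and its satellites, and 6 ciliary regulators of hedgehog signalling. The list holds them by name and function, and it was drawn up with earlier results of these libraries known.

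The series held 3 libraries of medial cortex and 2 of lateral cortex. All came from dissected, untreated brain tissue of wildtype embryos on a mixed strain background, so region was the only labelled difference. The series title names Sonic hedgehog signalling, which vertebrate cells receive through the primary cilium, and the design names the comparison of the regions. The labels do not say whether replicates were separate embryos. The p-values therefore cover the spread between these libraries only. That spread is not technical alone, since libraries of each region differed in Xist and the Y-linked gene Ddx3y, as given below. Totals of gene counts were 27406370 to 36460274 reads in the medial and 56147129 to 66981952 in the lateral libraries, so depth moved with region. Medial library 1 stood apart for the hedgehog-induced genes Gli1 and Ptch1, described with the pathway below, and for microglial markers, which summed to 65.5 CPM there against 22.9 to 34.1 CPM in the other libraries. Markers of postmitotic neurons were present in every library, and those of ventral GABAergic neurons summed to 2.66 to 16.6 CPM (reads per 1000000 mapped to genes, after TMM scaling) in medial against 65.1 to 94.2 CPM in lateral libraries.

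A primary cilium is a single microtubule-based projection that grows from the older centriole of a cell. Radial glia, the stem cells of the embryonic cortex, extend theirs into the ventricle. Cargo moves to the tip with intraflagellar transport (IFT) complex B and kinesin-2 and returns with complex A and dynein-2. The BBSome carries membrane proteins out of the cilium, and the transition zone at its base acts as a gate. When a hedgehog ligand binds, the receptor Ptch1 and the inhibitory receptor Gpr161 leave the cilium while Smo accumulates there, and Gli proteins are processed accordingly.

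Many ciliary genes carry an X-box, the DNA motif bound by RFX transcription factors. The boxes found near the start sites of the members are shown because they are a feature that the choice of members by name did not use. The motif, GT NN CC NNN G N AAC written in blocks with N for any base, was searched on both strands of RefSeq promoter windows (GRCm38.p6) from 250 bases before to 50 bases after each start. Of the 36 members 32 had a window in the table, and Ift80, Ift81, Ift122 and Tmem67 had no entry. The box was present for 8 of the 32 members (25%), against 673 of all 27025 genes with a window (2.49%). Each stretch below runs 5′ to 3′ on the strand of its gene, with the match in capitals.
Bbs1 (chr19:4906605-4906634, minus strand): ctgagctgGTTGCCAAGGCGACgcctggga
Bbs4 (chr9:59353464-59353493, minus strand): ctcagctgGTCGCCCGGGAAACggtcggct
Bbs7 (chr3:36613489-36613518, minus strand): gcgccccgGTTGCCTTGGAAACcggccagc
Ift57 (chr16:49699199-49699228, plus strand): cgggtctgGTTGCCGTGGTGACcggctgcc
Mks1 (chr11:87853183-87853212, plus strand): gcgtctccGTTGCCAGGGGAACgaggcacc
Tctn1 (chr5:122264411-122264432, minus strand): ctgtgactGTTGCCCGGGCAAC
Tctn2 (chr5:124598679-124598708, plus strand): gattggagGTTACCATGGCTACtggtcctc
Tmem216 (chr19:10555723-10555752, minus strand): tgtacgcaGTTTCCATGGGGACtgaacatg

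The boxes of Bbs7, Mks1 and Tctn1 match the motif on both strands. The 8 genes belong to 3 roles, with 3 BBSome subunits, 4 transition zone genes and 1 IFT-B subunit. None of the windows of the 6 hedgehog regulators held a match, which says only that these letters are not in those windows. None of the 8 genes with a box passed the test between the regions described next, and their log2 fold changes ran in both directions, from −0.42 for Bbs4 to 0.34 for Tctn2.

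The levels of ciliary genes differed little between medial and lateral cortex. Of the 36 members, 2 were higher in medial cortex, Evc2 and Tulp3, and 0 were lower, by edgeR's quasi-likelihood test at an adjusted p of 0.05. That is 5.56% of the members, against 9.72% of all genes tested (1577 of 16229), of which 4.62% were higher and 5.1% lower. At an unadjusted p under 0.05 there were 5 members toward medial and 3 toward lateral cortex, together 22.2% of the members against 32.2% of all genes. DESeq2 called 4 members higher (Evc, Evc2, Tulp3 and Ift74) and 1 lower (Bbs4), beside 21.7% of all genes.

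The median log2 fold change of the members, medial minus lateral, was 0.05, beside 0.01 over all genes tested. Of the members 34 (94.4%) lay within 0.5 of 0 on this scale, against 72.8% of all genes. Genes whose mean level lay in the range of the members, from 6.13 CPM (Bbs5) to 73.6 CPM (Ift46), numbered 7635, and 78.9% of them lay within 0.5 of 0. Summed over the 36 genes, the level was 1088, 1100 and 1047 CPM in medial libraries 1 to 3 and 1066 and 1000 CPM in lateral libraries 1 and 2. The groups overlapped in this sum, and the medial mean was 104% of the lateral one. Changes in opposite directions can cancel in a sum, and the members had 23 positive and 13 negative log2 fold changes.

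**Figure D1:**
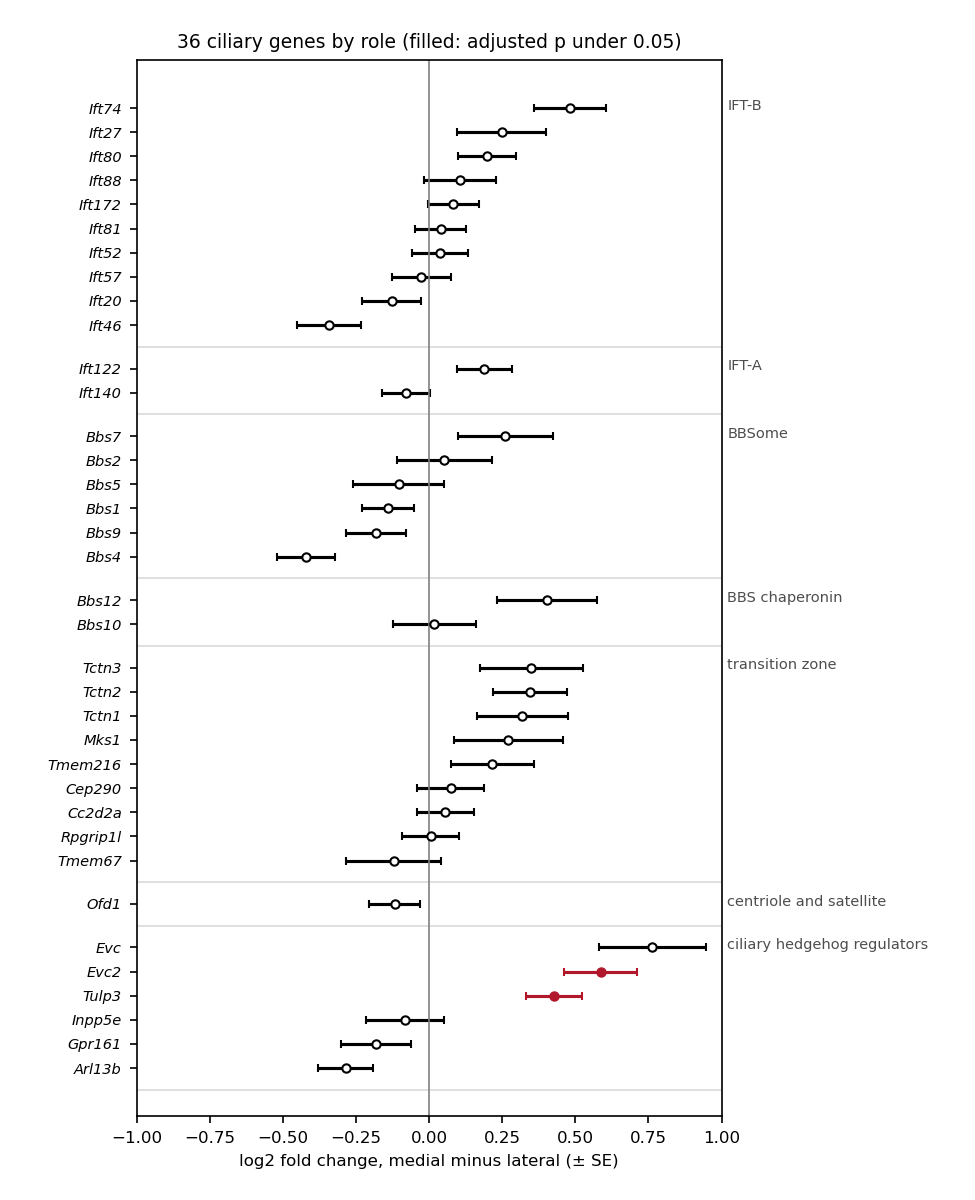
Log2 fold changes of all 36 members (x axis, medial minus lateral, bars are standard errors), ordered by role on the y axis. Filled points are Evc2 and Tulp3, the members past an adjusted p of 0.05; all other points are open, and Evc lies farthest to the right at 0.76.

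Both called members were among the 6 ciliary hedgehog regulators, which is 33.3% of them, against 4.62% of all genes called higher. At an unadjusted p under 0.05 there were 4 of the 6 (66.7%, against 32.2% of all genes). Of these 3 were positive and 1 negative. The median log2 fold change of the 6 was 0.17, beside 0.01 over all genes. Evc and Evc2 form a complex near the base of the cilium that binds Smo and passes its signal on. Evc2 had 31.0, 30.0 and 27.6 CPM in medial libraries 1 to 3 and 21.5 and 17.8 CPM in lateral libraries 1 and 2. Every medial library was above both lateral ones, with means of 29.5 ± 1.75 (SD, n = 3) and 19.6 ± 2.65 (SD, n = 2). The log2 fold change of Evc2 was 0.59 (SE 0.12, edgeR adjusted p = 0.0440).

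Evc had 47.9, 39.8 and 34.6 CPM in the medial and 27.2 and 20.8 CPM in the lateral libraries. Its groups did not overlap either, and its spread within each group was wider than that of Evc2. With 0.76 (SE 0.18) it had the largest log2 fold change of the 36 members but missed the threshold at an edgeR adjusted p = 0.0523. Without each library in turn the log2 fold change of Evc ranged from 0.58 to 0.96, and DESeq2 gave an adjusted p of 0.00249. Evc also passed in an edgeR fit blocked by a tag in the deposited names (adjusted p = 0.000205), which drops medial library 1 from the contrast and called 33% of all genes.

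Evc and Evc2 lie head to head, with 1597 bases between their RefSeq starts, and they were the 2 members with the largest log2 fold changes. Their upstream sequences are shown because the pair moved in the same direction, and that of Tulp3 because it is the other called gene. Each runs 5′ to 3′ over the 250 bases before the start (RefSeq, GRCm38.p6), with capitals marking the GC-box letters GGGCGG or, on the other strand, CCGCCC.
Evc (chr5:37336882-37337131, minus strand): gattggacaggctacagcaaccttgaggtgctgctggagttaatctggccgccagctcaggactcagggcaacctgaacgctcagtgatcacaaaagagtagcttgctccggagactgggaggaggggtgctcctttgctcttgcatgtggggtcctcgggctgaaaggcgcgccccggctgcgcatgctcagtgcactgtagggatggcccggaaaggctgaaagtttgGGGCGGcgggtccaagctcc
Evc2 (chr5:37338228-37338477, plus strand): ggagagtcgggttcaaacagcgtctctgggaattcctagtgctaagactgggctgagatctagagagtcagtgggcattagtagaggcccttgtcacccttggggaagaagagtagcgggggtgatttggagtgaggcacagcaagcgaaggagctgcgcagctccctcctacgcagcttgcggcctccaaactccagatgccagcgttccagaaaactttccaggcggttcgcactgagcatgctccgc
Tulp3 (chr6:128355852-128356101, minus strand): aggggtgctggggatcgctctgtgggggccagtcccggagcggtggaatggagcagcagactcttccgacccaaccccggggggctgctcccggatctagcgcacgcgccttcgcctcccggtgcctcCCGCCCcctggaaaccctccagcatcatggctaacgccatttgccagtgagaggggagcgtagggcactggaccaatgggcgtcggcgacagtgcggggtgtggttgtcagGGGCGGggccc

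The stretch of Evc holds 1 GC box, that of Tulp3 holds 2 and that of Evc2 holds 0. Over all 32851 windows 32.7% held at least 1 in these 250 bases, and 18 of the 35 windows of members did (51.4%). The G and C content was 60.8% for Evc, 57.2% for Evc2 and 69.2% for Tulp3.

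Tulp3, a tubby-family protein that brings Gpr161 and other receptors into the cilium together with IFT-A, had 32.2, 29.8 and 30.9 CPM in medial libraries 1 to 3. In lateral libraries 1 and 2 it had 23.9 and 22.1 CPM, so the regions did not overlap. The means were 30.9 ± 1.20 (SD, n = 3) and 23.0 ± 1.24 (SD, n = 2), and the log2 fold change was 0.43 (SE 0.09, edgeR adjusted p = 0.0471).

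The other 3 regulators had negative log2 fold changes and did not pass. Arl13b, a GTPase of the ciliary membrane, had 22.0, 24.0 and 23.2 CPM in medial and 27.4 and 28.8 CPM in lateral libraries. The lateral libraries of Arl13b were both above the medial ones, with a log2 fold change of −0.28 (SE 0.09, edgeR adjusted p = 0.101). Gpr161, the receptor that restrains the pathway through cyclic AMP, had a log2 fold change of −0.18 (SE 0.12), and its regions overlapped at 42.8 to 54.5 CPM against 54.1 and 58.0 CPM. Inpp5e, a phosphatase that sets the lipid composition of the ciliary membrane, stood at −0.08 (SE 0.13). The 6 regulators thus held both called members and, in the opposite direction, Arl13b with the third lowest p among the negative values.

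Single libraries ended the calls of Evc2 and Tulp3. Both kept them without medial library 1, where 13.2% of all genes were called. Neither was called without medial library 2 or 3, where 0 and 490 of all genes were called. Neither was called without lateral library 1 or 2 either, where only 1 lateral library was left and calls over all genes also fell. With no low-count filter neither was called (edgeR adjusted p = 0.0754 for Evc2 and 0.0994 for Tulp3). In the 4 fits without one of these libraries the edgeR adjusted p rose to at most 0.287 for Evc2 and 0.311 for Tulp3, with the log2 fold changes between 0.45 and 0.73 and between 0.37 and 0.48.

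**Figure D2:**
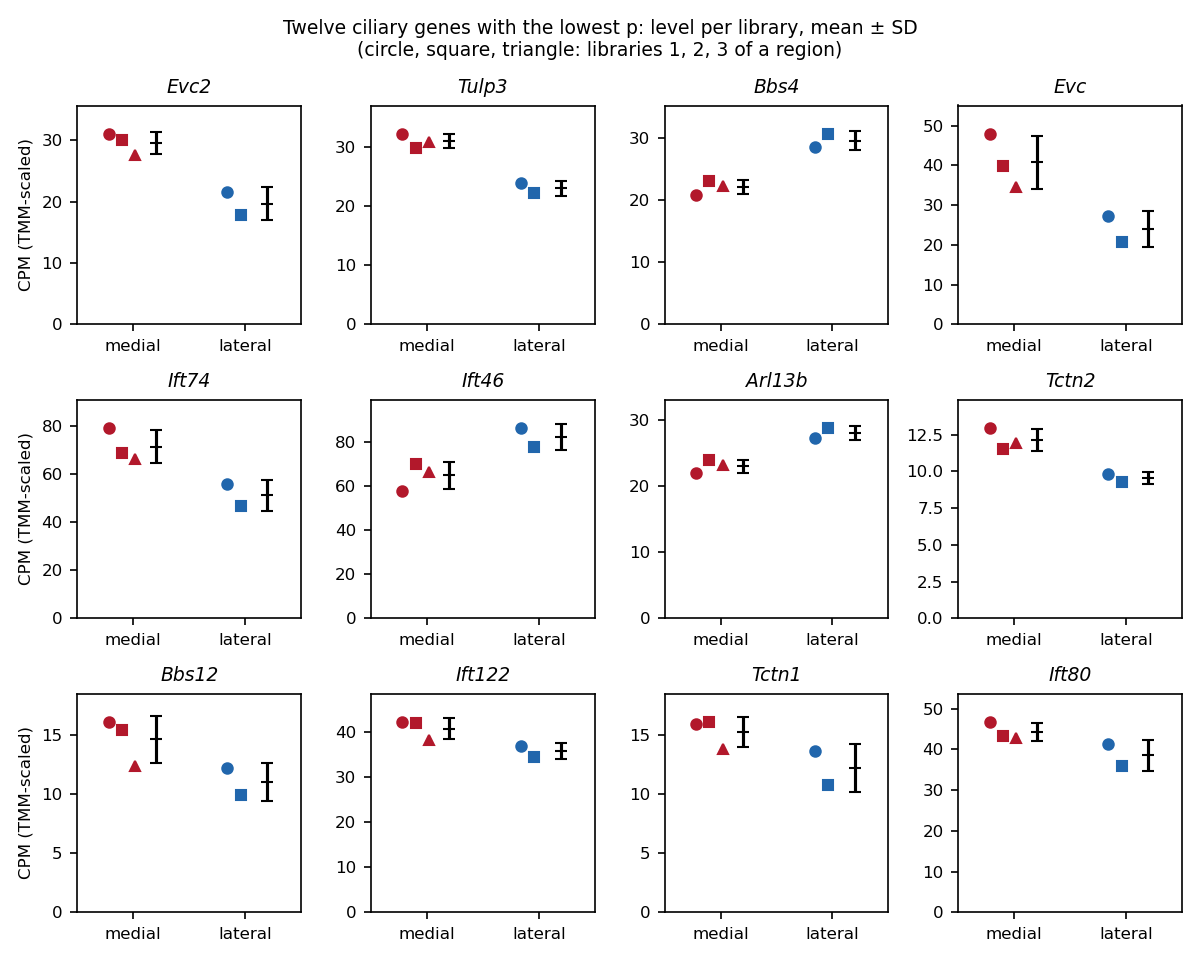
CPM per library (y axis, starting at 0, own scale for each gene) of the 12 members with the lowest p, with medial libraries in red, lateral ones in blue, and the mean ± SD beside them in black. Evc2 and Tulp3 lie higher in every medial library, while Bbs4, Ift46 and Arl13b lie higher in both lateral libraries.

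In IFT complex B, the anterograde train, 0 of 10 subunits passed in edgeR, against 9.72% of all genes. At an unadjusted p under 0.05 there was 1 in each direction, together 20% against 32.2% of all genes. The median log2 fold change was 0.06, beside 0.01 over all genes. Ift74, a coiled-coil core subunit, had 79.2, 69.0 and 66.3 CPM in medial and 55.8 and 46.6 CPM in lateral libraries. The regions did not overlap for Ift74, and its log2 fold change was 0.48 (SE 0.12, edgeR adjusted p = 0.0582, DESeq2 adjusted p = 0.00990). It passed in the edgeR fit blocked by the name tag (adjusted p = 0.00211). Ift46, another core subunit, lay the other way, with 57.9, 70.2 and 66.7 CPM in medial and 86.5 and 78.1 CPM in lateral libraries. Its log2 fold change was −0.34 (SE 0.11, edgeR adjusted p = 0.0906), also without overlap, and Ift46 passed in the fit blocked by the name tag (edgeR adjusted p = 0.0155).

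Ift81 forms a tubulin-binding pair with Ift74, yet its log2 fold change was 0.04 (SE 0.09), and the difference between these 2 genes was not tested. Ift80, a peripheral subunit, had 46.7, 43.3 and 42.8 CPM in medial and 41.3 and 35.9 CPM in lateral libraries. The log2 fold change of Ift80 was 0.20 (SE 0.10, edgeR adjusted p = 0.225), with the lowest medial library just above the higher lateral one. Ift27, a small GTPase of the train, stood at 0.25 (SE 0.15) and Ift20, the subunit also found at the Golgi, at −0.13 (SE 0.10). The remaining 4 had log2 fold changes near 0, namely Ift88 (0.11), Ift172 (0.08), Ift52 (0.04) and Ift57 (−0.03), and their regions overlapped.

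Neither subunit of IFT complex A, the retrograde train, passed in edgeR or had an unadjusted p under 0.05, against 9.72% and 32.2% of all genes. Ift122 had 42.2, 41.9 and 38.1 CPM in medial and 37.0 and 34.4 CPM in lateral libraries, and its log2 fold change was 0.19 (SE 0.09, edgeR adjusted p = 0.215). Ift140 stood at −0.08 (SE 0.08). Both genes were free of overlap between the regions, in opposite directions, beside 53.3% of all genes that did not overlap. DESeq2 called neither subunit, beside 21.7% of all genes called.

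In the BBSome 0 of 6 listed subunits passed in edgeR, against 9.72% of all genes. At an unadjusted p under 0.05 there was 1 (16.7%, against 32.2% of all genes). Negative log2 fold changes were found for 4 of the 6, beside 7868 of all 16229 genes tested. The median of the 6 was −0.12. Bbs4, a subunit that also binds the satellite protein Pcm1, had 20.9, 23.2 and 22.3 CPM in medial and 28.6 and 30.7 CPM in lateral libraries. Both lateral libraries were above all medial ones, with means of 29.6 ± 1.49 (SD, n = 2) and 22.1 ± 1.14 (SD, n = 3). The log2 fold change of Bbs4 was −0.42 (SE 0.10), the lowest of all 36 members, and it missed the threshold at an edgeR adjusted p = 0.0513. It was called lower by DESeq2 (adjusted p = 0.00527) and by edgeR after all libraries were thinned to the smallest (adjusted p = 0.0493), a setting that called 9.18% of all genes. Bbs4 also passed in the fit blocked by the name tag (edgeR adjusted p = 0.00902).

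Bbs1 (−0.14) and Bbs9 (−0.18) also lay below both lateral libraries in each medial library, Bbs7 (0.26) lay above them, and Bbs2 (0.05) and Bbs5 (−0.10) overlapped. The summed level of these 6 listed subunits was 119, 121 and 121 CPM in medial and 132 and 131 CPM in lateral libraries. Its medial mean was 91.4% of the lateral one. The sums of the 6 hedgehog regulators did not overlap either, in the opposite direction. They were 204, 211 and 202 CPM in medial and 189 and 180 CPM in lateral libraries, a medial mean of 111%. Of the 2 chaperonin-like genes, which help assemble the BBSome, Bbs12 had 16.1, 15.4 and 12.4 CPM in medial and 12.2 and 9.90 CPM in lateral libraries. Its log2 fold change was 0.40 (SE 0.17, edgeR adjusted p = 0.167), and medial library 3 lay just above lateral library 1. Bbs12 passed in the fit blocked by the name tag (edgeR adjusted p = 0.0443). Bbs10 stood at 0.02 (SE 0.14).

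In the transition zone 0 of 9 genes passed in edgeR or DESeq2, against 9.72% and 21.7% of all genes. At an unadjusted p under 0.05 in edgeR there was 1 (11.1%, against 32.2% of all genes). Positive log2 fold changes were found for 8 of the 9, beside 8361 of all 16229 genes tested. The median of the 9 was 0.22. The tectonics, which are membrane and secreted parts of the gate, lay closest together. Tctn2 had 12.9, 11.5 and 11.9 CPM in medial and 9.82 and 9.27 CPM in lateral libraries, with no overlap and a log2 fold change of 0.34 (SE 0.13, edgeR adjusted p = 0.125). Tctn1 had 15.9, 16.1 and 13.8 CPM against 13.7 and 10.8 CPM, a log2 fold change of 0.32 (SE 0.16, edgeR adjusted p = 0.215). Medial library 3 and lateral library 1 were nearly equal in Tctn1. Tctn3 stood at 0.35 (SE 0.18) with the widest spread of the 3.

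Mks1 (0.27) and Tmem216 (0.22), both genes of Meckel syndrome, overlapped between the regions. So did the large scaffold genes Cep290 (0.07), Cc2d2a (0.05) and Rpgrip1l (0.01), and Tmem67 (−0.12), the gene of a frizzled-like membrane protein of the gate. Ofd1, a gene of the centriole and its satellites on the X chromosome, had a log2 fold change of −0.12 (SE 0.09, edgeR adjusted p = 0.398). It was a little lower in every medial library, at 26.6, 26.4 and 25.5 CPM against 28.3 and 28.5 CPM in lateral ones.

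The libraries also differed in sex-linked genes. Xist had 260 CPM in medial library 3 and 266 CPM in lateral library 2. It had 6.52 CPM in medial library 1, against 0.560 CPM in medial library 2 and 0.365 CPM in lateral library 1. The Y-linked gene Ddx3y was at 0.0556 CPM in medial library 3 and 0.0557 CPM in lateral library 2. It was between 88.4 and 104 CPM in medial libraries 1 and 2 and lateral library 1. Each region thus held both patterns. Their part in the values of Ofd1 was not tested.

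In all, 20 of 36 members did not overlap between the regions (55.6%), beside 53.3% of all genes tested. Medial was above lateral in 12 of them and below in 8, beside 26.5% and 26.7% of all genes. Levels per exon length could be compared between genes only approximately, with union lengths of GENCODE M21 exons (GRCm38) and not the annotation used for counting. On this scale the lateral mean ran from 2.14 CPM per kilobase for Tctn1 to 22.2 for Ift20, with a median of 7.08. IFT-B subunits took the top of that order in lateral cortex, with Ift20, Ift27 (20.2), Ift74 (19.5) and Ift46 (19.5) ahead of Ift81 (16.9). In the medial mean Ift74 led with 27.3 CPM per kilobase, followed by Ift27 with 24.0 and Ift20 with 20.3.

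The libraries were unstranded, so reads of overlapping genes could not be told apart, and 8 members shared exon bases with another gene in GENCODE M21. The shares were 27.5% of the exon length for Tctn1 with Hvcn1, 21.1% for Inpp5e with Pmpca and 9.45% for Cep290 with 4930430F08Rik. The others, Ift57, Ift88, Bbs12, Tmem67 and Ofd1, shared at most 8.45% with any single gene. Evc, Evc2, Tulp3, Bbs4, Ift74, Ift46 and Arl13b shared none.

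Other genes of the same machinery were read from lists. The calls given below for motors, further transition zone genes, disassembly genes and motile cilium genes were all lost in edgeR without medial library 2 or 3 or lateral library 1 or 2, as were those of cycling cell, radial glia and endothelial markers. Over all genes edgeR called 0 without medial library 2 and 490 without medial library 3. Calls over all genes also fell without lateral library 1 or 2. Without medial library 1 edgeR called 6.27% of all genes higher and 6.94% lower. Of 12 further IFT subunits 0 passed in edgeR and 3 (25%) had an unadjusted p under 0.05, against 9.72% and 32.2% of all genes. Their median log2 fold change was 0.13. Examples are Wdr35 (0.45, SE 0.15, edgeR adjusted p = 0.107), of complex A, and Ttc21b (−0.17). None of 5 further BBS genes passed in edgeR or had an unadjusted p under 0.05. Among them are Lztfl1 (−0.08), which holds the BBSome back from the cilium, and Bbip1 (−0.05). The other log2 fold changes of this list, 3 of the 5, were positive, with Ttc8 at 0.16. Of 14 basal body and distal appendage genes 0 passed in edgeR and 4 (28.6%, against 32.2% of all genes) had an unadjusted p under 0.05. Pcm1, the core of centriolar satellites, stood at 0.12 and Odf2 at 0.32. DESeq2 called 0 of the further IFT subunits, 0 of the further BBS genes and 2 of the basal body genes, both lower, beside 21.7% of all genes.

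Of 9 IFT motor genes 2 were lower in medial cortex (22.2%, against 5.1% of all genes), and both encode subunits of kinesin-2. Kif3a, a motor subunit, had 88.3, 104 and 109 CPM in medial and 136 and 163 CPM in lateral libraries, and its log2 fold change was −0.57 (SE 0.13, edgeR adjusted p = 0.0467). Kifap3, the accessory subunit, had 110, 118 and 127 CPM in medial and 155 and 192 CPM in lateral libraries, with −0.55 (SE 0.12, edgeR adjusted p = 0.0455). Kinesin-2 also moves cargo in axons, and the neuronal markers given below were lower in medial cortex too; their part in these values was not tested. Kif3b, the second motor subunit, stood at −0.07. Dync2h1, the dynein-2 heavy chain, is named after its values were seen; it had 189, 143 and 121 CPM in medial against 89.5 and 71.6 CPM in lateral ones, and its log2 fold change was 0.90 with an edgeR adjusted p = 0.0507. Without medial library 1 edgeR called 1 motor gene lower and 1 higher.

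Of 14 further transition zone genes 11 had positive and 3 negative log2 fold changes, with a median of 0.20. Among them 1, Rpgr, an X-linked exchange factor of the cilium base, was lower in medial cortex (7.14%, against 5.1% of all genes). The log2 fold change of Rpgr was −0.48 (SE 0.10, edgeR adjusted p = 0.0407). Rpgr had 29.7, 34.2 and 32.9 CPM in medial against 43.5 and 46.4 CPM in lateral libraries, so both lateral libraries were above all medial ones.

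Of 12 transducers of the hedgehog signal at the cilium 0 passed in edgeR, against 9.72% of all genes. At an unadjusted p under 0.05 in edgeR there were 5, all positive (41.7%, against 32.2% of all genes in either direction). DESeq2 called 2, beside 21.7% of all genes. Smo had 219, 163 and 149 CPM in medial and 119 and 88.8 CPM in lateral libraries, with no overlap and a log2 fold change of 0.77 (SE 0.20, edgeR adjusted p = 0.0631). Gli3, the main repressor of the pathway in cortex, stood at 0.38 (SE 0.11, edgeR adjusted p = 0.0817). Gli1 and Ptch1, whose transcription rises with hedgehog signalling, are named after their values were seen. They were high in medial library 1 alone, at 42.4 and 181 CPM. In medial libraries 2 and 3 both genes lay below both lateral libraries. Gli1 had 0.245 and 0.362 CPM in medial libraries 2 and 3, against 0.623 and 0.799 CPM in lateral libraries 1 and 2. Ptch1 had 9.09 and 10.3 CPM in medial libraries 2 and 3, against 15.3 and 21.9 CPM in lateral libraries 1 and 2. The summed level of the 36 members in medial library 1, 1088 CPM, lay between those of medial libraries 2 and 3. In that library 17 members, among them Evc, Evc2 and Tulp3, had their highest medial level and 14 had their lowest. Without medial library 1 edgeR called 1 transducer lower and 0 higher.

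Of 7 genes that act when cilia are taken down before division 3 were higher in medial cortex, Nedd9 (0.80, SE 0.13, edgeR adjusted p = 0.0316), the kinase Aurka that it activates (0.63, SE 0.10, edgeR adjusted p = 0.0318) and the kinesin Kif24 (0.80, SE 0.18, edgeR adjusted p = 0.0472). That is 42.9% of the list, against 4.62% of all genes, and the same count was reached without medial library 1. Of the other 4, Hdac6 stood at 0.0042 and Kif2a at −0.39 (edgeR adjusted p = 0.124), both named after their values were seen. Aurka is also a mitotic kinase, and markers of cycling cells moved in the same direction. The part of cycling cells in these values was not tested.

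Those markers and others are given for whole lists. Of 12 genes of cycling cells 5 were higher (41.7%, against 4.62% of all genes) and 0 lower, including Rrm2, Tyms, Aurkb and Mcm5, with a median log2 fold change of 0.64, and their summed level was 3516 to 4434 CPM in medial against 2308 to 2725 CPM in lateral libraries. Of 10 radial glia genes 3 were higher (30%), Hes1, Nes and Notch1, with a median of 0.63 and sums of 3407 to 4140 CPM against 2266 to 2695 CPM. Of 10 genes of postmitotic neurons 4 were lower (40%, against 5.1% of all genes), Syt1, Rbfox3, Dcx and Snap25, with a median of −0.89 and sums of 2156 to 3349 CPM against 4360 to 5840 CPM. Neuronal calls fell to 1 without medial library 3 and to 0 without medial library 2, where 490 and 0 of all genes were called. They were also lost without lateral library 1 or 2, where calls over all genes fell too. The ciliary members' sums overlapped between the regions while these 3 did not, and the difference between the lists was not tested. In bulk tissue, fewer cells of a type and less RNA per cell cannot be told apart.

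**Figure D3:**
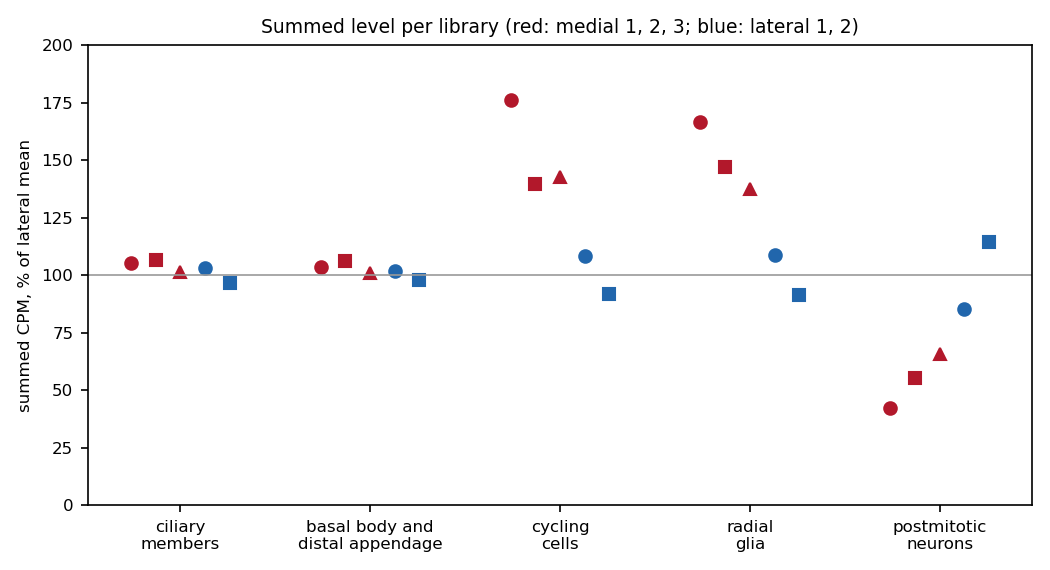
Summed CPM of 5 gene lists in each library as a percentage of the mean of the lateral libraries (y axis, starting at 0), with symbols for libraries 1, 2 and 3 of each region. The ciliary members lie between 96.8% and 106% in all 5 libraries, while cycling and radial glia lists lie at 137% or more in medial libraries and neuronal genes at 65.7% or less.

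**Figure D4:**
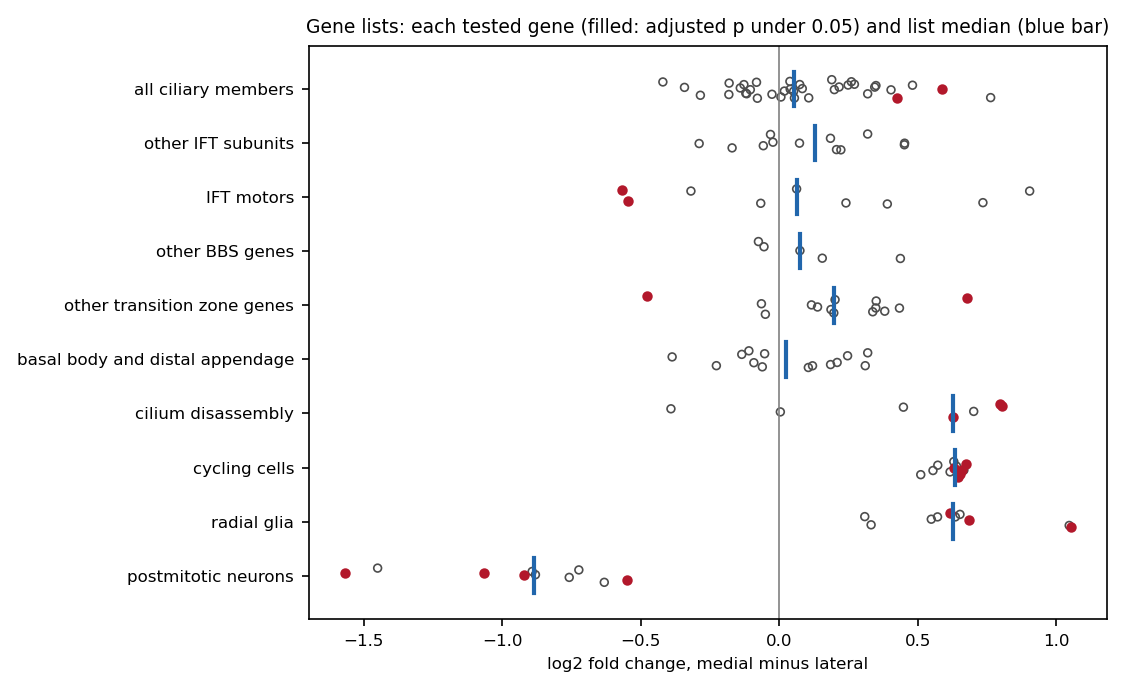
Log2 fold change of each tested gene (x axis, medial minus lateral) in 10 lists (y axis), with filled points past an adjusted p of 0.05 and blue bars at the list medians. Medians of the members and of the IFT, motor, BBS, transition zone and basal body lists lie between 0.03 and 0.20, and those of the cilium disassembly, cycling and radial glia lists at 0.63 to 0.64.

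Genes of motile cilia, which beat and belong to ependymal and choroid plexus cells, were read as markers of other ciliated cells. Of 20 listed, 16 were tested and 3 were higher (18.8%, against 4.62% of all genes), Hydin, a central-pair protein (1.29, SE 0.20, edgeR adjusted p = 0.0316), the ciliary factor Foxj1 (0.68, SE 0.14, edgeR adjusted p = 0.0416) and Spef2 (1.33, SE 0.29, edgeR adjusted p = 0.0462). Of the 16 tested 5 had negative log2 fold changes, 2 of them at an unadjusted p under 0.05, Tekt2 (−1.02, edgeR adjusted p = 0.125) and Ccdc40 (−0.57, edgeR adjusted p = 0.0783), named after their values were seen. Spef2 and Hydin stayed low, at most at 0.763 and 2.85 CPM in any library. The RFX factor Rfx3, whose family binds the X-box, had a log2 fold change of 0.23, and Rfx2 one of 0.52, neither past the threshold and both named after their values were seen. The summed level of the list was 160 to 174 CPM in medial against 146 and 148 CPM in lateral libraries. Rfx3 alone made up the largest part of this sum, with 115, 105 and 99.8 CPM in medial and 91.4 and 90.6 CPM in lateral libraries. Of the list 2 genes were higher without medial library 1.

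The remaining lists mark other cells of the dissected tissue. Of 8 choroid plexus genes 7 were tested and 1, Otx2, was higher (14.3%, against 4.62% of all genes). Otx2 had 12.8, 3.71 and 3.00 CPM in medial and 0.106 and 0.241 CPM in lateral libraries. Of the 7 tested 5 had positive and 2 negative log2 fold changes. The negative ones were Ttr (−0.46) and Kcne2 (−0.28), named after their values were seen. The sum of the list stayed between 2.63 and 18.4 CPM in every library. All 8 genes of GABAergic neurons had negative log2 fold changes and 6 were lower (75%, against 5.1% of all genes), with Gad1, Gad2, Dlx2 and Dlx1 first. These calls fell to 0 without medial library 2, where 0 of all genes were called. They were also lost without lateral library 1 or 2, where calls over all genes fell too. All 8 endothelial genes had negative log2 fold changes, with a median of −0.46, and 1, Cdh5, was lower (12.5%, against 5.1% of all genes). All 8 blood genes were negative too, with a median of −0.36, and 1, Hbb-y, was lower (12.5%). DESeq2 called 5 endothelial and 2 blood genes lower, beside 21.7% of all genes called in either direction. Of 8 microglial genes, led by Cx3cr1 and Csf1r, 0 passed in edgeR or had an unadjusted p under 0.05, against 9.72% and 32.2% of all genes. DESeq2 called 0 microglial genes. The log2 fold change was above 0 for all 8, and its median was 0.68, or 0.25 without medial library 1. The calls of choroid plexus and blood genes were lost without medial library 2, lateral library 1 or lateral library 2. Of the 5 sex genes 0 passed in edgeR or in DESeq2, and 0 had an unadjusted p under 0.05. The part of these cells in the values of the ciliary members was not tested.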

How the data were processed

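The authors deposited 1 table per library with whole-number read counts per gene symbol, not normalized. Per the submitters' processing notes the build was mm9 and the tools were BWA, STAR and HTSeq, with no versions or roles. Per the labels' protocols, RNA was extracted with a Qiagen micro kit and libraries were polyA-selected and unstranded. Reads in 5 unassigned classes (23.1% to 28.7% of each file) were left out. A floor of 3 reads equals 0.0448 to 0.109 reads per 1000000 gene counts, here before TMM scaling, and covers counting error only. The lowest count of any member was 166 reads (Bbs5).

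TMM scaling and edgeR 4.0.16 under R 4.3.3 were used on the counts (glmQLFit with legacy=FALSE, glmQLFTest). The model held region alone, leaving 3 residual degrees of freedom. The filter was filterByExpr (count 10, total 15). P-values were adjusted by Benjamini-Hochberg over all genes tested. The standard error is the absolute log2 fold change over the root of F. DESeq2 1.42.0 was an alternative.

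The members and lists were chosen with earlier results of these data known. All 36 members are named; the 12 with the lowest p have values in every library, and each other list contributes up to 4 called genes, or 2 with the highest mean. Symbols were matched through RefSeq synonyms where needed. Promoter windows are RefSeq's, on GRCm38.p6, and serve only to show sequences. One result among the further transition zone genes is not reported here.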

Additional observations from a re-analysis of the deposited data

How the results depend on the processing

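The counts of ciliary genes higher and lower in medial cortex, 2 and 0 in edgeR, became 4 and 1 with DESeq2 (3527 calls over all genes against 1577), and 0 and 0 with no low-count filter (8 members at an unadjusted p under 0.05). They became 2 and 1 with libraries thinned to the smallest. Leaving out each library gave 0 to 2 higher and 0 lower members. Over all genes it gave 0 to 2164 calls: 0 without medial library 2 or lateral library 2 (4035 and 2456 genes at an unadjusted p under 0.05), 18 without lateral library 1, 490 without medial library 3 and 2164 without medial library 1. In the 4 fits without a library that called no member, 5 to 8 members had an unadjusted p under 0.05. The causes were not tested.

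With a replicate block by the labels' numbers, which drops medial library 3 from the contrast and leaves 1 residual degree of freedom, 1 member was higher (Evc, adjusted p = 0.0415) and 1076 genes passed. Deviations of same-numbered libraries from their group means correlated at 0.03 and −0.38, and the labels give such libraries no shared source, so they were not taken as pairs. A tag in the deposited names, which the labels do not explain, joins medial library 2 with lateral library 1 and medial library 3 with lateral library 2 (correlations 0.38 and 0.38). With 2 lateral libraries their deviations are exact opposites, so for medial library 2 the values by number and by tag are 1 value with its sign turned. Both tag pairs also match in Xist and Ddx3y; whether they share an embryo was not tested. A block by this tag drops medial library 1 and gave 5 higher (Evc, Evc2, Tulp3, Ift74 and Bbs12) and 2 lower members (Bbs4 and Ift46), beside 5361 calls over all genes (33%).

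Of the 36 members, 28 kept the sign of their log2 fold change under all 14 alternatives, and the other 8 had absolute values of at most 0.08. Signs turned for Ift57 (main value −0.03) with library size alone (0.047), and leaving out each library gave −0.078 to 0.0071. Bbs10 turned when thinned (−0.014) and with the replicate block (−0.063), and leaving out each library gave −0.064 to 0.078. Bbs2 turned with the replicate block (−0.00097) and ranged from −0.055 to 0.17 without a library. Rpgrip1l turned without the filter (−0.0089) and ranged from −0.087 to 0.097 without a library. With the block by tag Cep290 (−0.0033) and Inpp5e (0.0063) turned, and without a library Inpp5e ranged from −0.19 to 0.0092, Ift81 from −0.0071 to 0.079 and Cc2d2a from −0.039 to 0.15. DESeq2 size factors, library size alone, the filter at 1 CPM in 2 libraries and the older form of the edgeR test left 2 members higher and 0 lower.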
